A study of Homo sapiens with 6 samples.

Results

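CDK1, cyclin B2 (CCNB2) and CKS2 are the kinase that drives entry into mitosis, a B-type cyclin that binds it and its small adaptor protein. They were taken by symbol from a table of log ratios that the authors deposited for 672 genes (724 entries), where each of the 3 genes had 1 entry. All were listed higher in cells with a hairpin against LOXL2, at 1.34 for CCNB2, 1.22 for CKS2 and 1.20 for CDK1 in the authors' deposited table. These values were known when the 3 genes were chosen, so they are given as a description, without a test.

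The cells were MDA-MB-231, an established human line of triple-negative breast cancer with mesenchymal features. A lentiviral short hairpin was directed against LOXL2 (shLOXL2, 3 Affymetrix arrays) or was a control hairpin (shControl, 3 arrays). LOXL2 is a secreted lysyl oxidase that cross-links collagen, with a described nuclear role as well. Each condition rests on the hairpin the labels name, and no label tells if replicates are separate cultures, so the spread behind the p-values is that of these arrays and may be technical. The source name of shControl replicates 2 and 3 says shLOXL2, against their titles and knockdown fields, and they were kept as controls. The arrays held log2 values of 32321 probe sets without gene names here. CDK1, CCNB2 and CKS2 therefore have no value of their own per array, and neither the markers of the line nor LOXL2 could be looked up by name on the arrays.

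CDK1 is inactive without a cyclin. Cyclins A and B bind it as cells pass from G2 phase into mitosis, and the complex then phosphorylates proteins of chromosomes, the nuclear envelope and the spindle. The Cks proteins dock on CDK1 and on phosphorylated substrates, which helps multisite phosphorylation. WEE1 and PKMYT1 hold the complex inactive by phosphorylating CDK1, CDC25 phosphatases remove those phosphates, and the anaphase-promoting complex ends the cycle by marking cyclin B for destruction. Transcripts of CDK1, CCNB2 and CKS2 peak in G2 phase and mitosis in proliferating cells.

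CCNB2 had the highest of the 3 values, 1.34 in the authors' deposited table, and was its gene number 7 from the top. CKS2 followed as number 11, with 1.22 in the authors' deposited table. CDK1, with 1.20, was number 12 in the authors' deposited table, directly after CKS2 when genes are ranked by the mean of their entries. Single entries of SKA2 at 1.213 and FAM72D at 1.209 stood between them in the authors' deposited table. The other entries of SKA2 and FAM72D were lower. The 3 genes thus stood within the top 12 genes of the table, and each lay above 98.2% to 99.0% of its genes. The header of the table gives no log base. If it is log2, the entries of the authors' deposited table are 2.54-fold (CCNB2), 2.34-fold (CKS2) and 2.30-fold (CDK1) higher in shLOXL2 cells. If it is the natural log, the authors' deposited table would give 3.83-fold, 3.40-fold and 3.32-fold for CCNB2, CKS2 and CDK1.

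The direction was read from LOXL2, which was last in the authors' deposited table, at -3.04. The arrays bear on the log base in the same way. Their lowest difference between shLOXL2 and shControl, that of a single unnamed probe set, was -3.08 on the log2 scale, and the next was -2.13. An entry of -3.04 in the authors' deposited table would be -4.38 on the log2 scale if it were a natural log, and no probe set was that low. Likewise, the entry of CCNB2 in the authors' deposited table would be 1.94 on the log2 scale, above the highest array difference of 1.93. Log2 is therefore used below, as the reading nearer to the arrays, and is not stated in the table.

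**Figure D1:**
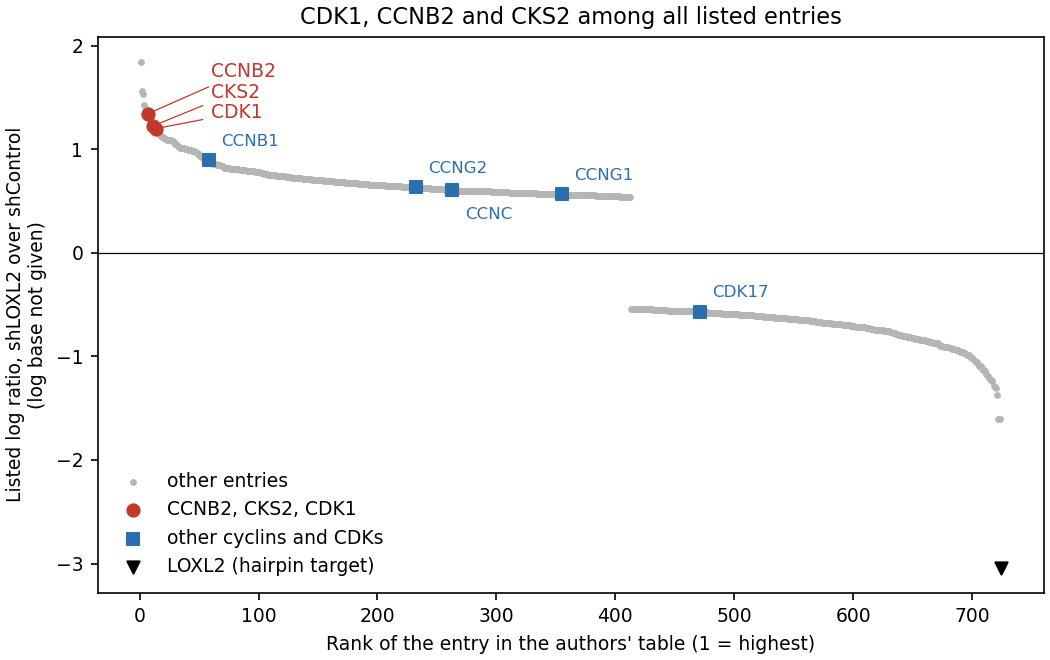
Listed log ratio (shLOXL2 over shControl, log base not given) of all 724 entries of the authors' deposited table, against their rank. CCNB2, CKS2 and CDK1 (red circles, 1.34, 1.22 and 1.20) stand near the top, CCNB1, CCNG2, CCNC and CCNG1 (blue squares) further down the higher side, and CDK17 on the lower side at -0.57; no entry is smaller than 0.537 in size.

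The genes with the most alike values, by gene mean, were of mixed kinds. They were taken as the 2 next above and the 2 next below each of the 3 genes. Above CCNB2 came the mitotic kinesin KIF20A at 1.39 and the chemokine CXCL11 at 1.35 in the authors' deposited table. Below it stood the cytokine receptor CRLF2 at 1.315 and the chemokine CCL20 at 1.29 in the authors' deposited table. BIRC3, an inhibitor of apoptosis, lay just above CKS2 at 1.28 in the authors' deposited table. Directly below CDK1 were the centrosomal kinase NEK2 at 1.18 and CDKN3, a phosphatase that acts on CDKs, at 1.175 in the authors' deposited table. This likeness rests on 1 comparison, since the table gives no value per array.

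The 3 values lay close together. CCNB2 exceeded CDK1 by 0.143 and CKS2 by 0.119, and CKS2 exceeded CDK1 by 0.024, in the authors' deposited table. The entries carry no error of their own. The standard error of a difference between shLOXL2 and shControl on the arrays had a median of 0.158 on the log2 scale over all 32321 probe sets (limma, 3 arrays a group), and 61.6% of the probe sets had a standard error above 0.143. In the fit with the replicate block the median was 0.136, and 41.3% were above 0.143. The widest gap, between CCNB2 and CDK1, was thus about 1 standard error of a typical probe set in either fit. The gap between CKS2 and CDK1 was far smaller. Probe sets with differences at or above the listed value of CDK1 had larger standard errors, with a median of 0.431 without the block. Against these, even the widest gap was small. The error of the gaps themselves could not be computed.

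Of the 20 other cyclin-dependent kinases on a list of the family, 1 had an entry. This was CDK17, a kinase of the less studied PCTAIRE group, with -0.57 in the authors' deposited table, thus listed lower (1.48-fold if log2). It opposed CDK1 in sign and lay near the smallest size in the table. Of all RefSeq protein-coding genes, 1.19% were listed lower, so a single gene of 20 says little about the family. The kinases of G1 and S phase, CDK2, CDK4 and CDK6, and the transcriptional kinases CDK7, CDK8 and CDK9 had no entry among those analysed.

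Of 23 other cyclins, 4 had an entry under their own symbol, and all 4 were listed higher. Of all RefSeq protein-coding genes, 2.99% had an entry and 1.80% were listed higher, and 56.2% of the genes in the table were listed higher. CCNB1, the other main mitotic B-type cyclin, had 0.89 in the authors' deposited table (1.86-fold if log2), which was 0.451 below CCNB2. The other 3 were not mitotic cyclins, namely CCNG2 at 0.63, CCNC, the partner of CDK8 in the Mediator complex, at 0.605 and CCNG1, a p53 target, at 0.56 in the authors' deposited table. Their values stood in the lower part of the higher side, where the median gene of the authors' deposited table had 0.648. Cyclins D and E (CCND1, CCNE1, CCNE2) had no entry among those analysed. Cyclin A2 (CCNA2), which binds CDK1 in G2 phase, may be present under a damaged name. None of the table's IDs holds the letters NA, and 12 of its 30 entries without a symbol become RefSeq symbols when these letters are put back, such as AHK for AHNAK and SERPI3 for SERPINA3. An entry CC2, at 0.905 in the authors' deposited table, can be read in this way as CCNA2 or as NACC2, a transcriptional repressor, and the file does not tell which. Read as CCNA2, it would make 5 other cyclins listed higher and would stand between CDK1 and CCNB1. Among the cyclins and CDKs with an entry under their own symbol, CCNB2, CDK1 and CCNB1 were the highest.

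CKS1B, the closest relative of CKS2 and also known for its part in the destruction of the CDK inhibitor p27, had 2 entries, at 0.736 and 0.735 in the authors' deposited table. Their mean was 0.4885 below CKS2. Both Cks genes of the human genome were thus listed higher. The file's own classification puts CKS2 and CKS1B under kinases, although neither has kinase activity. Among the 32 genes it calls kinases, CKS2 ranked 1 and CDK1 ranked 2, ahead of NEK2 and PLK1, in the authors' deposited table. Of these 32, 20 were listed higher and 12 lower. The table also names flavopiridol, a CDK inhibitor, as a drug for CDK1.

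Regulators on both sides of CDK1 were listed higher where they had an entry, but most had none. As a background to the lists that follow, 2.99% of all RefSeq protein-coding genes had an entry and 1.80% were listed higher. Of 15 genes that help to activate CDK1, 4 had an entry and all 4 were listed higher, with a median of 0.945 in the authors' deposited table. PLK1, the kinase that activates CDC25C and turns WEE1 over, had 1.10 in the authors' deposited table. CDC25C, a phosphatase that activates CDK1, had 1.003 in the authors' deposited table. ARPP19, which blocks the phosphatase PP2A-B55 that opposes CDK1, had 0.989 and 0.785 for its 2 entries in the authors' deposited table. TPX2, an activator of AURKA, had 0.74 in the authors' deposited table. CDC25A, CDC25B and AURKA had no entry among those analysed. With the entry CC2 read as CCNA2 the count would be 5 of 15 and the median 0.905 in the authors' deposited table.

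Of 17 genes that restrain CDK1 or other CDKs, 3 had an entry, and these were also listed higher. CDKN3 had 1.175, close to CDK1, in the authors' deposited table. WEE1, the inhibitory kinase of CDK1, had 0.676 and 0.562 for its 2 entries in the authors' deposited table. CDKN1B, the inhibitor p27, had 0.57 in the authors' deposited table. PKMYT1 and CDKN1A (p21) had no entry among those analysed.

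Of 23 genes that mark cyclin B for destruction or delay it through the spindle checkpoint, 6 had an entry, all listed higher. The checkpoint kinases TTK, BUB1B and BUB1 had 1.015, 0.755 and 0.74 in the authors' deposited table. Securin (PTTG1), which is destroyed together with cyclin B, had 0.82 in the authors' deposited table. UBE2C and UBE2S, the ubiquitin-conjugating enzymes of the anaphase-promoting complex, had 0.66 and 0.63 (the mean of 2 entries) in the authors' deposited table. The co-activator CDC20 and the subunits CDC16, CDC23, CDC26 and CDC27 had no entry among those analysed. No ID could match the ANAPC subunits as spelled, since the letters NA are missing. Put back, these letters gave no entry for those on the list, and they turn the entry APC16, at 0.546 in the authors' deposited table, into ANAPC16, a subunit not on the list.

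Among 20 genes of G2/M transcription, 2 had an entry. FOXM1, which activates CCNB2 and other mitotic genes, had 0.97 in the authors' deposited table, and the repressor E2F8 had 0.61. MYBL2 and the LIN proteins of the MuvB core, which recruits FOXM1, had no entry among those analysed. Of 29 substrates and partners of CDK1 in mitosis, 17 had an entry, all listed higher, with a median of 0.806 in the authors' deposited table. NEK2, CDCA8 and CENPF had 1.18, 1.09 and 1.08 in the authors' deposited table. KIF20A, at 1.39, was the only gene of all the lists above any of CCNB2, CKS2 and CDK1 in the authors' deposited table.

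Counted once each, 38 of the 146 other list genes (26.0%) had an entry, 37 listed higher and 1 lower, where 2.99% of all RefSeq protein-coding genes had an entry, 1.80% listed higher and 1.19% lower. The median of the 38, with CDK17 on the lower side, was 0.747 in the authors' deposited table. All genes listed higher there, which include the 37, had a median of 0.648. With the entry CC2 read as CCNA2 there would be 39, of which 38 listed higher. The lists were drawn up with earlier results of these data known, so these counts describe the table and are no independent evidence.

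**Figure D2:**
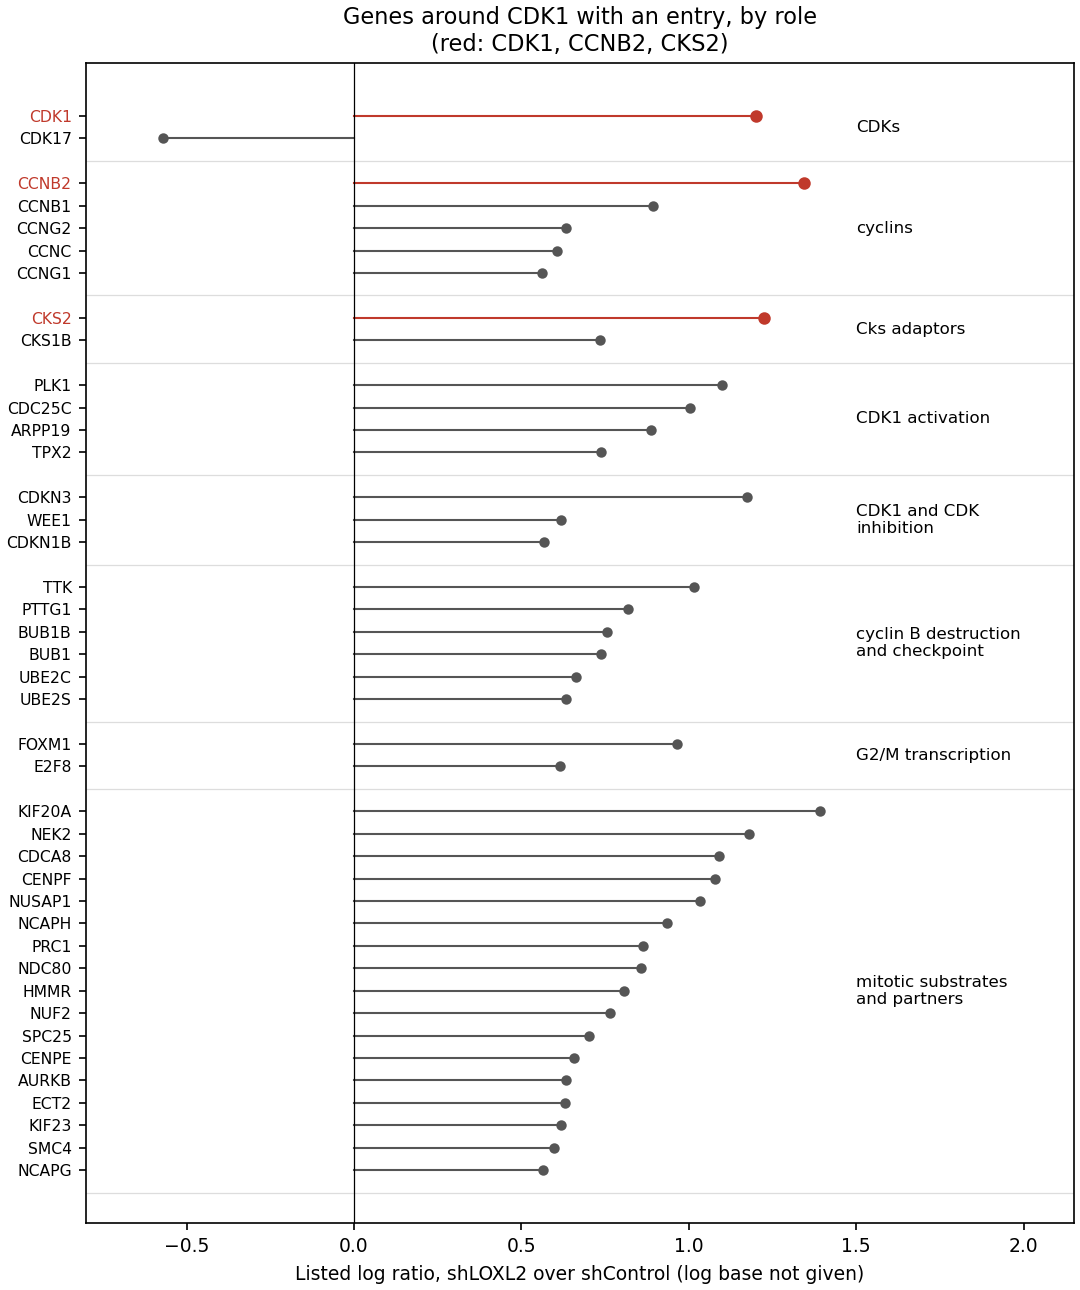
Listed log ratio (shLOXL2 over shControl, log base not given) of the 41 genes around CDK1 that have an entry in the authors' deposited table, grouped by role, with CDK1, CCNB2 and CKS2 in red. All lie on the higher side, from 0.563 to 1.39, except CDK17 at -0.57, and KIF20A alone lies above CCNB2.

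On the arrays, differences as large as the listed ones were rare. Of the 32321 probe sets, 10 (0.0309%) had a difference at or above the value of CCNB2, 18 (0.0557%) at or above that of CKS2 and 21 (0.0650%) at or above that of CDK1. On the lower side, 20, 35 and 38 probe sets had a difference at least as far below 0. The authors' deposited table held 7, 11 and 14 entries at or above the same values. None of the 21 probe sets passed an adjusted p of 0.05 in limma, where their adjusted p lay between 0.547 and 0.921 and 18 had an unadjusted p under 0.05. With the replicate block their lowest adjusted p in limma was 0.303, and 21 had an unadjusted p under 0.05. In 12 of the 21 (57.1%) the lowest shLOXL2 array lay above the highest shControl array, against 4.53% of all probe sets. The 21 were picked by the size of their difference. This share and the small unadjusted p-values in limma therefore follow in part from that choice. Their standard errors had a median of 0.431 on the log2 scale (0.187 to 0.751), against 0.158 over all probe sets. Whether probe sets of CDK1, CCNB2 or CKS2 are among them cannot be said, as the sources used here do not name the probe sets.

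The same limit holds for the whole comparison. In limma, 0 of the 32321 probe sets were called higher in shLOXL2 (0%) and 1 was called lower (0.00309%), with 777 higher and 1004 lower at an unadjusted p under 0.05. With the replicate block the same probe set was called, and 1352 were higher and 1612 lower at an unadjusted p under 0.05. The counts at the listed sizes depended on single arrays. At or above the values of CCNB2, CKS2 and CDK1 there were 46, 76 and 84 probe sets without shLOXL2 replicate 2. There were 47, 71 and 81 when shControl replicate 1 was left out, and 22, 37 and 42 when it was shControl replicate 2. With shControl replicate 1 as the only control there were 95, 141 and 157.

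**Figure D3:**
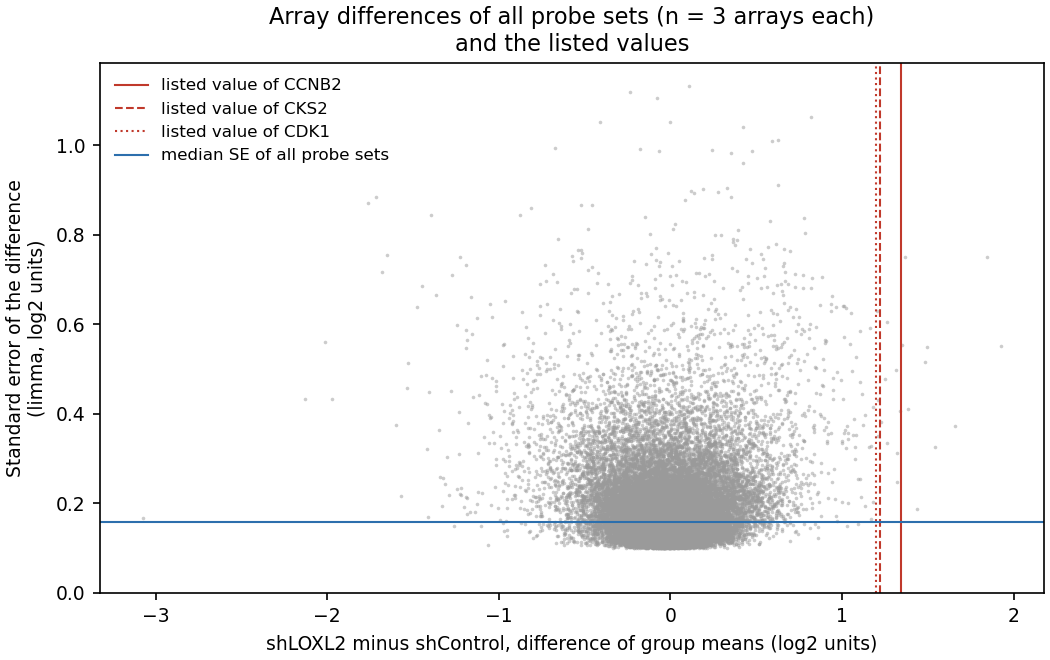
Difference between the means of shLOXL2 and shControl arrays (log2 units, 3 arrays each) against its limma standard error for all 32321 unnamed probe sets. Vertical lines mark the values that the authors' deposited table lists for CCNB2, CKS2 and CDK1 (1.34, 1.22 and 1.20, read as log2), with 10, 18 and 21 probe sets at or beyond them; the horizontal line is the median standard error, 0.158.

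The promoters of the 3 genes were compared because the genes stand together in the table. Promoter sequence was not used to choose them, but their role in mitosis was. Motifs that are common among mitotic genes are thus no independent finding here. Genes of G2 phase and mitosis often carry a cell cycle genes homology region (CHR), which recruits the DREAM complex in resting cells and MuvB with B-MYB or FOXM1 in dividing cells, and CCAAT boxes, which bind NF-Y. RefSeq windows (GRCh38.p14, 250 bases before to 50 after a start) were searched on both strands for the CHR, spelled TTTGAA, and the CCAAT box, spelled CCAAT. Neither motif contains the other. The 150 bases before the start are shown for the 3 genes and for their relatives CCNB1 and CKS1B, 5′ to 3′ on the plus strand, with both motifs on either strand in capitals. They are chr15:59104996-59105145 (CCNB2), chr9:89311045-89311194 (CKS2), chr10:60778328-60778477 (CDK1), chr5:69167000-69167149 (CCNB1) and chr1:154974531-154974680 (CKS1B).
CCNB2: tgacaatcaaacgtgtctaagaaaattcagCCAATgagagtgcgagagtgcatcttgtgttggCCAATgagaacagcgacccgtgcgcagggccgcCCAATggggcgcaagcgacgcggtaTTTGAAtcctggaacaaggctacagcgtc
CKS2: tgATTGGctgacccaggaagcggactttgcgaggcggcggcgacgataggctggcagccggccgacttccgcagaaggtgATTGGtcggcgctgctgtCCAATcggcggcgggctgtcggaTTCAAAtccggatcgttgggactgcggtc
CDK1, later start: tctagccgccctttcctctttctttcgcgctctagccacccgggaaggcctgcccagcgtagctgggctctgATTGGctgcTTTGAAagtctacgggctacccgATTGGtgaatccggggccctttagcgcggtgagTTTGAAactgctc
CCNB1: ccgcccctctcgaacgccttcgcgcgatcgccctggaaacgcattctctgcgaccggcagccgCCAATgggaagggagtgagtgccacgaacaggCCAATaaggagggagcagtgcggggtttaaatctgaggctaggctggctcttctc
CKS1B: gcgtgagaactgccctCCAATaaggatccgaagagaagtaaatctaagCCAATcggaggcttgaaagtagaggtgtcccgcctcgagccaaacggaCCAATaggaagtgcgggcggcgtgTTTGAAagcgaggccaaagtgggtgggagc

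In CCNB2 the CHR began 29 bases before the start, and CCAAT boxes began 54, 87 and 120 bases before it, at equal steps of 33 bases, with another at 244. In CKS2 the CHR also began 29 bases before the start, on the minus strand (TTCAAA), with CCAAT boxes at 52, 70 and 148. CDK1 has separate starts in RefSeq. At the later start, CHR copies began 13 and 69 bases before it and CCAAT boxes 46 and 78 bases before it, both on the minus strand (ATTGG) and 32 bases apart. A further CHR lay within the 50 bases after that start. The window of the earlier start held 1 CHR and 1 CCAAT box, 161 and 150 bases before it. From the last CHR before the start to the next CCAAT box upstream, the distance was 25 bases in CCNB2, 23 in CKS2 and 33 at the later start of CDK1. At the earlier start of CDK1 no CCAAT box lay upstream of the CHR in the window.

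Of the 35116 windows of all genes, 15.2% held a CHR, 34.6% a CCAAT box and 5.90% both. Counted by gene, with any window of a gene, 7.26% of 27305 genes, not only protein-coding ones, held both motifs. All 3 genes held both. Of the other list genes listed higher, 31 had a window, and 61.3% of these held a CHR, 74.2% a CCAAT box and 41.9% (13) both. The lists were drawn up around CDK1, and their genes without an entry were not counted for motifs. These shares therefore cannot tell the content of the lists from being listed higher. CKS1B resembled CKS2, with a CHR 30 and a CCAAT box 54 bases before the start, 24 bases apart. CCNB1 had CCAAT boxes at 55 and 87 bases, nearly as in CCNB2, and no CHR of these letters in the window. Between its nearer CCAAT box and the start it holds tttaaa, a spelling close to TTTGAA that was not searched. The lack of a CHR in CCNB1 thus holds only for the spellings used. Of the other cyclins and CDKs with an entry, CCNC held a CHR and a CCAAT box further from a start (182 and 245 bases), CCNG1 held CCAAT boxes alone, and CCNG2 and CDK17 held neither. The 8-base E2F sites TTTCCCGC and TTTGGCGC (1.63% and 0.652% of all windows), the variant TTCGAA (1.45%) and the TATA box TATAAA (11.5%) were also searched, with no match in any of these genes. A match is a run of letters and no measured binding, and no match says nothing about a factor.

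**Figure D4:**
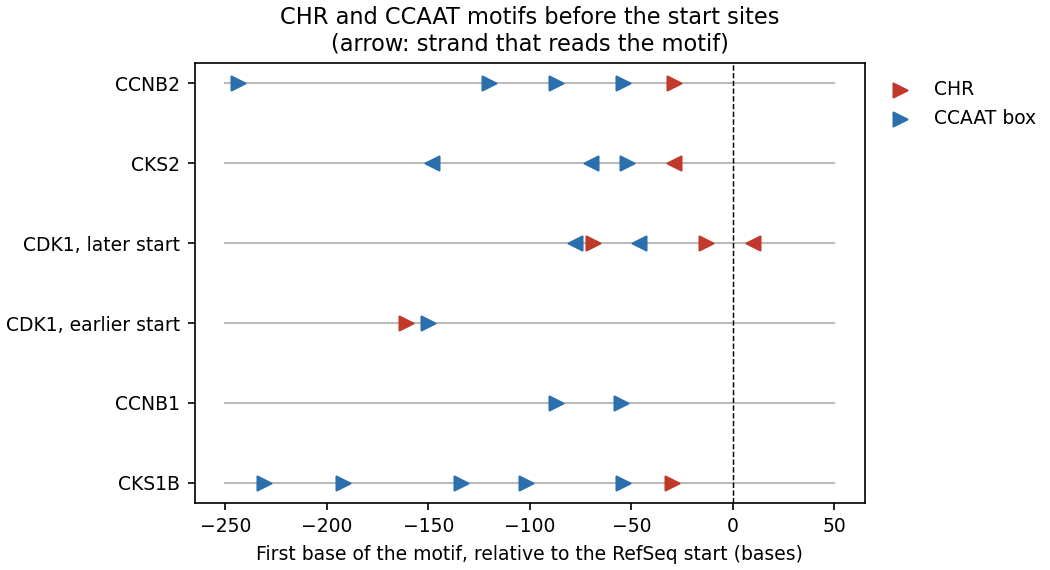
First base of each CHR (red) and CCAAT box (blue) relative to the RefSeq start (dashed line, in bases) in windows of 250 bases before to 50 after the start. Arrows point right for the gene's strand and left for the opposite strand. CCNB2, CKS2 and CKS1B have a CHR 29, 29 and 30 bases before the start with a CCAAT box just upstream. CDK1 has this layout at its later start. CCNB1 has CCAAT boxes and no CHR spelled TTTGAA, and most other spellings were not searched.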

How the data were processed

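Total RNA of 6 MDA-MB-231 samples was labelled with an Affymetrix whole-transcript kit, per the labels' protocols. The deposited log2 values were made with RMA, per the submitters' processing notes. The RMA version, build and annotation were not given in the sources used here. A log ratio table of the authors was exported from Ingenuity Systems software, per the file headers. Decimal commas were read as points and a leading question mark, on 312 entries, as minus, which left the entries in falling order with 0 breaks. Several entries of a gene were averaged. Genes were matched by file ID or symbol. IDs in the table lack the letters NA, which were not put back. Groups came from the sample titles.

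The planned test was limma (3.58.1, R 4.3.3) over all probe sets with group as the term and Benjamini-Hochberg adjustment at 0.05, tested on simulated data first. Printing its rows for CDK1, CCNB2 and CKS2 would need named probe sets. Deviations from the group means correlated at 0.354, 0.452 and 0.160 between same-numbered arrays. Between shLOXL2 and shControl arrays of different numbers they correlated at -0.348 to -0.0349. Deviations within a group cancel out, so positive values in some pairs come with negative ones in others. A pairing by number thus rests on the values alone. The main fit did not use it, and the replicate block was fitted as an alternative. The median log2 value per array was 5.74 to 5.82. Precision is limited by the number of arrays. Promoter windows, gene names and positions are RefSeq's. By rule, the genes named were the 3 members, all other cyclins and CDKs with an entry, the 4 genes farthest from 0 in each list, the nearest genes in the table and LOXL2. UBE2C, UBE2S and the entries without symbols were named beyond this, after their values were seen. The members and the 8 lists were chosen with earlier results of these data known.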

Additional observations from a re-analysis of the deposited data

How the results depend on the processing

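The 1 limma call held at 1 with limma-trend, robust moderation, quantile normalization, centring on the median, the 2 filters on low values and the replicate block, and 0 of the calls were higher in each. Leaving out any 1 array gave 0 to 0 calls in limma (with an unadjusted p under 0.05 for 1063 to 2250 probe sets). With shControl replicate 1 as the only control, assumed to vary like the other arrays, limma gave 0 calls (3975 at an unadjusted p under 0.05). The replicate block gave 1 call, the same probe set, and 2964 at an unadjusted p under 0.05, against 1781 without it. Read as natural logs, the folds of CCNB2, CKS2 and CDK1 were 3.83, 3.40 and 3.32. Probe sets at or above the values of CCNB2, CKS2 and CDK1 numbered 8 to 14, 13 to 21 and 16 to 24 under 6 of the alternatives that keep all arrays. Among these 6, limma-trend, robust moderation and the replicate block leave the differences unchanged, so they could not move these counts. Above the median level the counts were 5, 10 and 13, by construction of a smaller set. With 1 array left out they were 11 to 47, 18 to 76 and 20 to 84; the cause was not tested. Matching by ID alone or by current symbols left the other cyclins and CDKs at 4 listed higher and 1 lower. Both ways miss the damaged entry CC2. Read as CCNA2, an alternative chosen after seeing the data, it makes 5 listed higher.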

Other observations

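The layout of the promoters of CCNB2, CKS2 and CDK1, a CHR beginning within 30 bases before a start and a CCAAT box within 60 bases, was looked for in all RefSeq windows. The limits were read off these 3 genes after their positions had been seen. Of 35116 windows 72 (0.205%) had it, in 72 genes, of which 69 were other genes. In the authors' deposited table, 11 of these 69 (15.9%) were listed higher, 0 lower and 58 had no entry under their current symbol. Of the 27233 genes without the layout, 0.940% were listed higher and 0.654% lower. These shares and the 11 genes cover only file symbols that matched a window, 270 of the 377 genes listed higher. The 27233 are not only protein-coding genes. RefSeq's protein-coding genes, matched by older symbols as well, had 1.80% listed higher and 1.19% lower. The 11 genes had a median of 0.707 in the authors' deposited table, below CCNB2, CKS2 and CDK1.

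They were led by DEPDC1 at 1.11, CDCA8, a subunit of the chromosomal passenger complex, at 1.09 and the spindle midzone protein PRC1 at 0.86 in the authors' deposited table. The histone chaperone ASF1B, CKS1B, the kinesin KIF18A, PRR11, the kinetochore proteins SPC25 and ZWINT, the proliferation marker MKI67 and CDCA3 followed, from 0.79 to 0.59 in the authors' deposited table. CDCA8, PRC1, CKS1B and SPC25 belong to the lists of genes around CDK1, and the other 7 do not. They were named here after their values were seen.

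With wider limits, also chosen after seeing the data, the share thinned out. A CHR within 50 and a CCAAT box within 100 bases occurred in 173 other genes, 18 (10.4%) listed higher and 0 lower. Within 100 and 150 bases it occurred in 453 other genes, 24 (5.30%) listed higher and 2 lower. Counted the other way, both motifs occurred anywhere in the windows of 51 of 270 genes listed higher (18.9%, with CCNB2, CKS2 and CDK1 among them). They occurred in 10 of 178 listed lower (5.62%). Of all 27305 genes with a window, not only protein-coding ones, 7.26% held both. These counts describe 1 comparison of 3 against 3 arrays, no binding was measured, and no test was made.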
